A study of Homo sapiens with 27 samples.

Results

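The genes described here are 44 genes of the lysosome, named in a fixed list by their symbols: 33 enzymes and helper proteins of the lysosomal lumen and its cholesterol export, 5 membrane proteins, 5 subunits of the proton pump and the transcription factor TFEB. All 44 were found among the 60534 gene IDs that every file shares, all are protein coding, and all passed the filter on low counts in both assays, among 13293 genes tested in RNA-seq and 11766 tested in ribosome profiling (Ribo-seq, the sequencing of the mRNA fragments that ribosomes protect). The study profiled IMR90 cells, a line of wild-type fibroblasts, in 5 states: cycling cells harvested before they were confluent, contact-inhibited quiescent cells, cells made senescent by 15 Gy of ionizing radiation and harvested after 10 days, cells made senescent by 3 treatments with 50 µM etoposide over 10 days, and cycling cells given 25 nM thapsigargin for 3 h. RNA-seq had 2 cycling, 3 quiescent, 3 irradiated, 3 etoposide-treated and 2 thapsigargin-treated libraries, and Ribo-seq had the same numbers, except for 3 cycling libraries. Etoposide traps topoisomerase on broken DNA, and thapsigargin blocks the pump that fills the endoplasmic reticulum with calcium. The labels do not say whether replicates came from separate cultures, so every p-value measures the spread between these libraries, which may be technical.

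Lysosomes are acidic organelles that break down sugars, proteins and lipids delivered by endocytosis and autophagy. Their enzymes and their heavily glycosylated membrane proteins are made on ribosomes bound to the endoplasmic reticulum, and a proton pump, the V-ATPase, keeps the lumen acid. The transcription factor TFEB binds a short palindrome in the promoters of many of these genes, and beta-galactosidase, the product of GLB1, gives senescent fibroblasts the staining by which they are commonly recognised.

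Because TFEB is one of the 44 genes and its known binding sequence is short, the promoters were read for that sequence. RefSeq promoter sequences of build GRCh38.p14, from 250 bases before to 50 bases after each start, were given for 30 of the 44 genes, with 44 promoters among them. The core CACGTG, a palindrome that reads the same on both strands, stood in 20.5% of these promoters and in 7.26% of all 35116 promoters of that table. The longer palindrome TCACGTGA, which contains that core, stood in 5 of the 44 promoters (11.4%) and in 0.98% of all promoters. These 5 belong to GAA, CTSA, LAMP1, MCOLN1 and ATP6V0D1, and the 100 bases before each start are printed 5′ to 3′ on the strand of the gene, with TCACGTGA in capitals.
GAA, chr17:80101481-80101580, plus strand: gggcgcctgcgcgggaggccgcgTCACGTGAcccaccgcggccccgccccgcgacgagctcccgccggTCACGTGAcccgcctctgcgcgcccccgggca
CTSA, chr20:45891235-45891334, plus strand: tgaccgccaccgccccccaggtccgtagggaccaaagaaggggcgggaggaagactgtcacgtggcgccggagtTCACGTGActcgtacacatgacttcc
LAMP1, chr13:113297139-113297238, plus strand: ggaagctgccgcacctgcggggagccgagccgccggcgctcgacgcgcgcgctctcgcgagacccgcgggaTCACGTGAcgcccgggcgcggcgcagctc
MCOLN1, chr19:7522524-7522623, plus strand: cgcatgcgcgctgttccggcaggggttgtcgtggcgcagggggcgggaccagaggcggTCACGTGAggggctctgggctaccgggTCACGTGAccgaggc
ATP6V0D1, chr16:67481158-67481257, minus strand: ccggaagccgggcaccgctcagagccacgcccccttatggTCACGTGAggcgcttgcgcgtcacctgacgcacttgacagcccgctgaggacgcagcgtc
GAA and MCOLN1 each held 2 copies in this stretch, and LAMP1 held a second copy that crosses its start and is not printed. Against cycling cells, the RNA log2 fold changes of these 5 genes after etoposide were 0.97 for GAA, 0.49 for CTSA, 0.39 for LAMP1, 0.72 for MCOLN1 and 0.81 for ATP6V0D1, of which those of GAA and ATP6V0D1 passed the test. After irradiation they were 0.61, -0.25, -0.31, -0.34 and 0.59 in the same order, and that of ATP6V0D1 alone passed. A match describes these letters only and is not shown to be a bound site.

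The RNA-seq libraries held 20635503 to 57119841 counts in genes, and the Ribo-seq libraries 1936976 to 19996104. All 10 fibroblast markers (COL1A1, COL1A2, COL3A1, DCN, LUM, PDGFRA, PDGFRB, THY1, VIM and FAP) were over 1 CPM (counts per 1e+06 counts in genes, scaled by the TMM method of edgeR) in every group. CDKN1A, a cyclin-dependent kinase inhibitor, averaged 2580 CPM of RNA in irradiated and 3070 in etoposide-treated cells against 799 in cycling cells, and DDIT3, a stress factor, averaged 439 CPM under thapsigargin against 40.6. MKI67, a marker of dividing cells, averaged 155 CPM of RNA in cycling cells, 81 CPM in quiescence, 14.6 CPM after irradiation and 6.43 CPM after etoposide. Quiescent replicate 1 was the lowest of the 3 quiescent libraries for 35 of the 44 genes in RNA-seq and for 40 of 44 in Ribo-seq. The paragraphs on quiescent cells therefore also give values without it. Other groups had such libraries too. Cycling replicate 1 was the lowest of 2 for 32 of 44 genes in RNA-seq and of 3 for 31 in Ribo-seq. Irradiated RNA-seq replicate 2 was the highest of 3 for 33. The shares over all genes are not given here. The thapsigargin RNA-seq libraries had 1.35% to 1.40% unmapped reads, the other RNA-seq libraries 27.8% to 40.6%. The thapsigargin Ribo-seq libraries had 11.3% to 12.6% reads outside genes and 65.2% to 66.9% multimapping reads. Other Ribo-seq libraries had 1.35% to 2.77% and 19.8% to 31.9%. The labels leave out of the thapsigargin medium the antibiotic named for the other groups. Thapsigargin and these differences cannot be told apart. The 2 thapsigargin RNA-seq libraries had 38.0% and 19.7% multimapping reads. Chi-square per degree of freedom between their counts was 145, and 9.39 to 80.9 for other RNA-seq replicate pairs. These are bulk samples, in which a lower level per cell and fewer cells that make the RNA cannot be told apart.

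**Figure D1:**
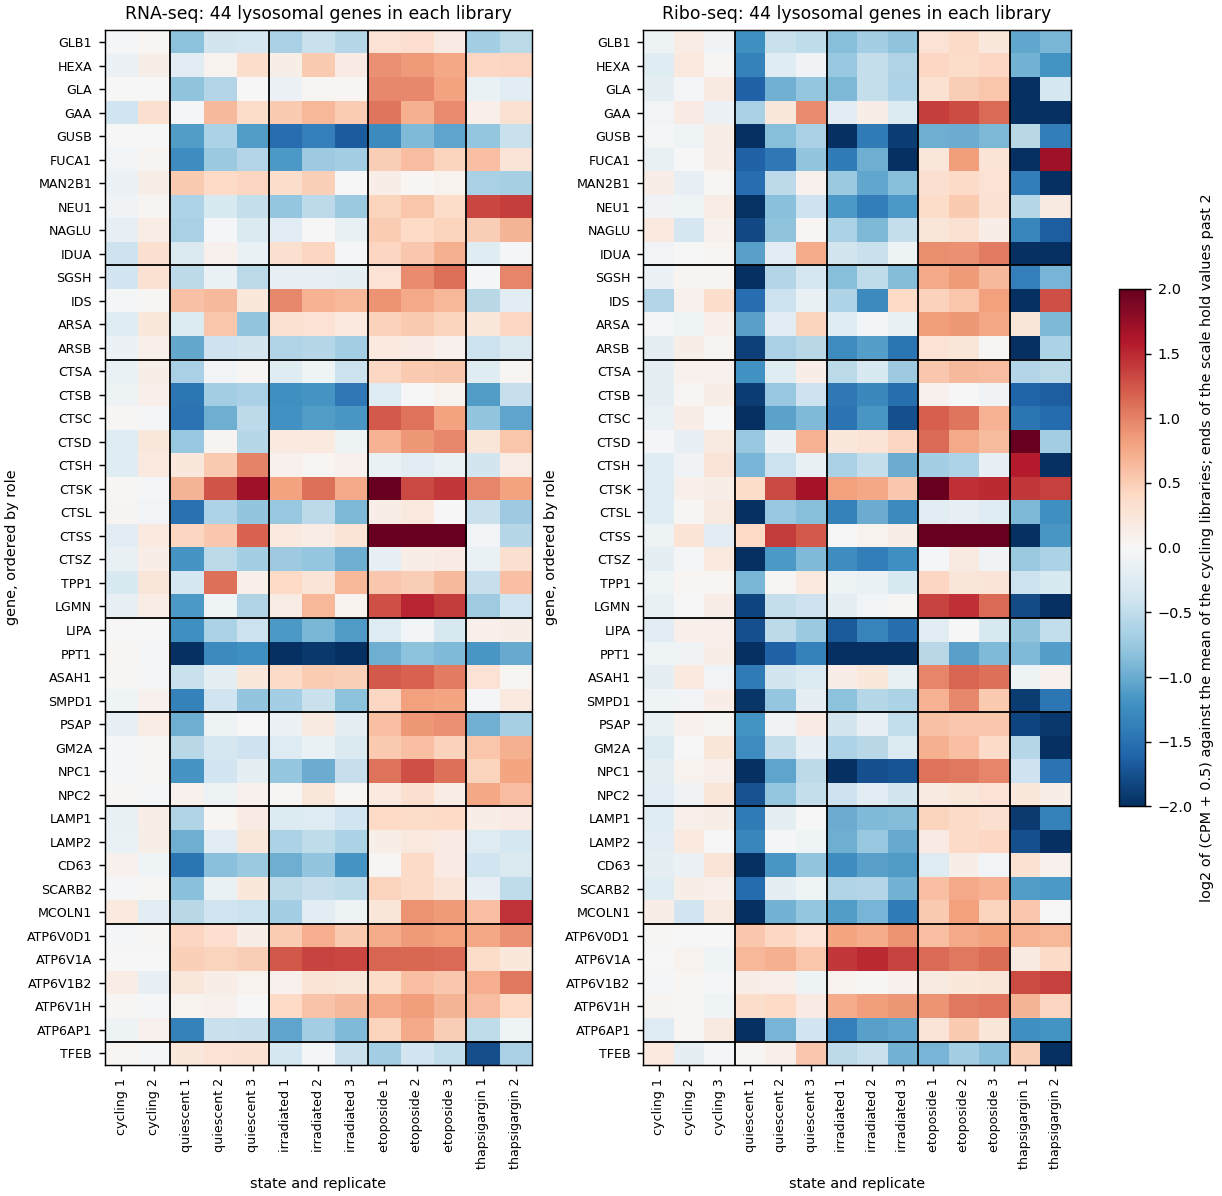
Each row is 1 of the 44 genes, ordered by role, and each column is 1 library of RNA-seq (left) or Ribo-seq (right), with horizontal lines between roles and vertical lines between states. Colour gives log2 of CPM + 0.5 against the mean of the cycling libraries, red for higher and blue for lower, with the scale ending at 2 in either direction. Most rows are red in the 3 etoposide-treated libraries and blue in quiescent replicate 1, and the rows ATP6V0D1, ATP6V1A and ATP6V1H are red in irradiated cells, where most other rows are blue or pale.

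GLB1, which encodes the beta-galactosidase of senescence staining, was lower in irradiated cells than in cycling cells in both assays, and its change after etoposide did not pass the test. Its RNA stood at 60.3 and 63.2 CPM in cycling libraries, 34.8, 48.0 and 49.0 for quiescent cells, 39.4, 45.2 and 41.6 for irradiated cells, 75.6, 77.8 and 69.3 for etoposide and 38.2 and 42.4 for thapsigargin. The etoposide-treated libraries were above all others, and the irradiated and quiescent libraries were below both cycling libraries and overlapped each other. Against cycling cells, GLB1 RNA was 1.47-fold lower after irradiation (log2 fold change -0.55 ± 0.145 (SE), edgeR adjusted p = 0.00923) and 1.41-fold lower in quiescence (log2 fold change -0.49 ± 0.145 (SE), edgeR adjusted p = 0.0352). The value after etoposide was a log2 fold change of 0.27 ± 0.146 (SE), with an edgeR adjusted p of 0.177. Under thapsigargin it was 1.53-fold lower (log2 fold change -0.62 ± 0.16 (SE), edgeR adjusted p = 0.0134). In Ribo-seq GLB1 stood at 109, 129.9 and 112 CPM in cycling libraries, 49.5, 85.7 and 81.7 for quiescent cells, 64.9, 72.6 and 66.9 for irradiated cells, 143, 152 and 135 for etoposide and 56.4 and 62.0 for thapsigargin. The etoposide-treated libraries were again above all others, and both thapsigargin-treated libraries were below every library of the other states but quiescent replicate 1. GLB1 footprints fell 1.72-fold after irradiation (log2 fold change -0.78 ± 0.169 (SE), edgeR adjusted p = 0.00229), 1.62-fold in quiescence (log2 fold change -0.69 ± 0.163 (SE), edgeR adjusted p = 0.00832) and 1.98-fold under thapsigargin (log2 fold change -0.98 ± 0.204 (SE), edgeR adjusted p = 0.00177). The direct comparison of the 2 kinds of senescent cells gave 1.76-fold less GLB1 RNA (log2 fold change -0.82 ± 0.131 (SE), edgeR adjusted p = 0.00078) and 2.10-fold fewer GLB1 footprints (log2 fold change -1.07 ± 0.17 (SE), edgeR adjusted p = 0.000981) after irradiation than after etoposide. Etoposide-treated cells also had more GLB1 RNA than quiescent cells (log2 fold change 0.76 ± 0.131 (SE), edgeR adjusted p = 0.000488). Irradiated and quiescent cells differed in GLB1 RNA by a log2 fold change of -0.06 ± 0.131 (SE), with an edgeR adjusted p of 0.789. With only 2 cycling RNA-seq libraries, the RNA call after irradiation was lost without cycling replicate 2 (edgeR adjusted p = 0.068), and those in quiescence and under thapsigargin were lost without either cycling library and without replicate 1 of quiescent or of thapsigargin-treated cells (edgeR adjusted p up to 0.18 and 0.0825). Without quiescent replicate 1 GLB1 RNA in quiescence stood at -0.35 on the log2 scale (edgeR adjusted p = 0.0859). Both were also lost in a fit of the 2 groups alone, as was the footprint call in quiescence (edgeR adjusted p = 0.0635). The footprint calls of GLB1 after irradiation and under thapsigargin held under every alternative tried.

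**Figure D2:**
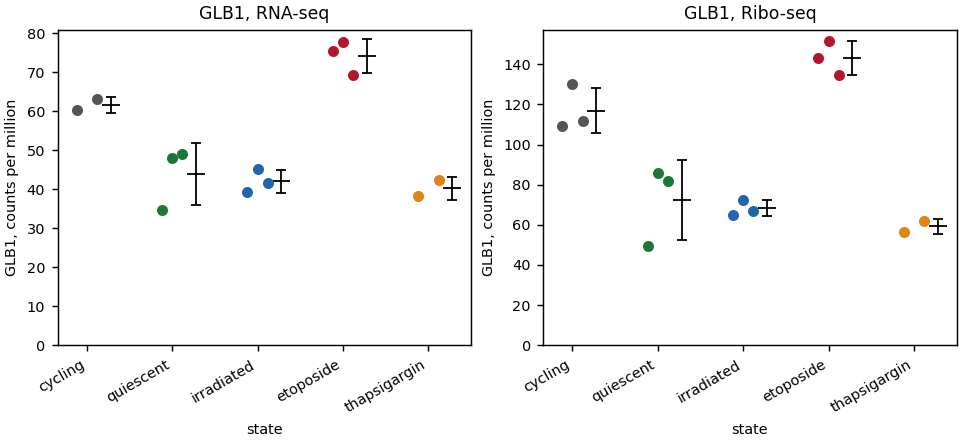
Points are the CPM of GLB1 in each library of RNA-seq (left) and Ribo-seq (right) by state, and the bar beside them is the mean with 1 SD. The 3 etoposide-treated RNA-seq libraries sit between 69.3 and 77.8 CPM, above all others, and the 3 irradiated ones between 39.4 and 45.2 CPM.

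After etoposide, more lysosomal RNAs rose than fell against cycling cells. Of the 44 genes, 19 rose (43.2%, beside 16.8% of all genes tested) and 2 fell (4.55%, beside 17.8%). Their median log2 fold change was 0.55, and that of all genes tested was 0.0016. Footprints of 10 genes rose (22.7%, beside 16.8% of all) and those of 2 fell (4.55%, beside 17.1%), with a median of 0.484. These 12 footprint calls were all among the 21 RNA calls and had the same direction: ASAH1, ATP6V0D1, ATP6V1A, ATP6V1H, CTSC, CTSK, CTSS, GAA, LGMN and NPC1 rose, and GUSB and PPT1 fell. The 6 endothelial markers summed to 57.4 to 90.2 CPM of RNA in etoposide-treated and 18.2 to 24.4 CPM in cycling libraries. Most of this was TEK, an angiopoietin receptor, at a mean of 67.6 and 20.6 CPM, while PECAM1 and CDH5 averaged 0.29 and 0.123 CPM after etoposide and 0 in cycling cells. Their part in these results was not tested.

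Among the proteases, 5 of 11 rose in RNA after etoposide and none fell, beside 16.8% and 17.8% of all genes tested. CTSS encodes cathepsin S, a cysteine protease best known from antigen-presenting cells. Its RNA stood at 0.584 and 0.934 CPM in cycling libraries, 1.197, 1.32 and 2.34 for quiescent cells, 0.948, 0.899 and 1.02 for irradiated cells, 10.4, 4.84 and 5.39 for etoposide and 0.707 and 0.351 for thapsigargin. In Ribo-seq CTSS stood at 1.64, 2.26 and 1.48 CPM in cycling libraries, 2.54, 5.52 and 4.87 for quiescent cells, 1.77, 1.90 and 2.03 for irradiated cells, 21.4, 12.4 and 14.7 for etoposide and 0 and 0.525 for thapsigargin. The etoposide-treated libraries were above all others in both assays, and replicate 1 was the highest. CTSS rose 9.08-fold in RNA (log2 fold change 3.20 ± 0.467 (SE), edgeR adjusted p = 0.000146) and 9.00-fold in footprints (log2 fold change 3.14 ± 0.349 (SE), edgeR adjusted p = 1.12e-05). The 8 macrophage and monocyte markers (PTPRC, CSF1R, CD14, MRC1, TYROBP, LYZ, AIF1 and ITGAM) summed to 1.68 to 2.1 CPM of RNA in etoposide-treated and 0.156 to 0.475 CPM in cycling libraries, and all 8 averaged below 1 CPM in every state, with 3 of them at 0 in cycling cells. In footprints they summed to 1.74 to 3.72 and 0.106 to 0.514 CPM, with CD14 alone over 1 CPM after etoposide. Their part in the rise of CTSS was not tested. CTSK, cathepsin K, a collagen-degrading protease, stood at 18.2 and 17.6 CPM in cycling libraries, 29.1, 43.3 and 59.2 for quiescent cells, 31.6, 39.1 and 30.7 for irradiated cells, 90.5, 45.4 and 48.4 for etoposide and 35.6 and 31.7 for thapsigargin in RNA. Every arrested library was above both cycling libraries, and etoposide-treated replicate 1 was the highest. It rose 3.44-fold after etoposide (log2 fold change 1.78 ± 0.32 (SE), edgeR adjusted p = 0.000794), and its footprints, at 18.4, 23.7 and 23.8 CPM in cycling libraries, 28.4, 55.8 and 71.0 for quiescent cells, 39.2, 38.0 and 32.2 for irradiated cells, 116, 61.7 and 62.5 for etoposide and 59.1 and 57.2 for thapsigargin, rose 3.64-fold (log2 fold change 1.86 ± 0.304 (SE), edgeR adjusted p = 0.000348). LGMN, legumain, which cuts after asparagine and helps other cathepsins mature, stood at 7.12 and 8.93 CPM in cycling libraries, 3.33, 7.55 and 5.12 for quiescent cells, 8.91, 13.0 and 8.41 for irradiated cells, 20.3, 24.1 and 22.0 for etoposide and 4.68 and 5.97 for thapsigargin in RNA. The etoposide-treated libraries did not overlap any other. LGMN rose 2.76-fold in RNA (log2 fold change 1.47 ± 0.293 (SE), edgeR adjusted p = 0.0017), and its footprints, at 23.1, 25.9 and 28.1 CPM in cycling libraries, 6.81, 18.4 and 19.2 for quiescent cells, 22.4, 24.7 and 26.1 for irradiated cells, 66.3, 71.9 and 57.0 for etoposide and 7.12 and 1.57 for thapsigargin, rose 2.53-fold (log2 fold change 1.34 ± 0.312 (SE), edgeR adjusted p = 0.00454). CTSC, which activates granule proteases, rose 2.07-fold in RNA and 2.00-fold in footprints (log2 1.05 and 1.00). CTSD, an aspartic protease, rose in RNA with a log2 fold change of 0.86. CTSD had 564 to 3002 counts in the RNA-seq libraries and 1 to 43 in the Ribo-seq libraries. Reads that mapped to several places or fell in more than 1 gene are not counted in any gene, and how many of these came from CTSD was not tested.

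Among the 4 lipid enzymes ASAH1 and SMPD1 rose and PPT1 fell in RNA after etoposide, and of the 4 activators and cholesterol transporters NPC1, PSAP and GM2A rose. Beside them, 16.8% of all genes tested rose and 17.8% fell. LIPA, acid lipase, and NPC2, a soluble cholesterol carrier, did not pass in either assay, with log2 fold changes of -0.20 and 0.23 in RNA and -0.17 and 0.23 in footprints. ASAH1, acid ceramidase, rose 2.22-fold in RNA (log2 fold change 1.15 ± 0.165 (SE), edgeR adjusted p = 0.000128) and 2.13-fold in footprints (log2 fold change 1.09 ± 0.224 (SE), edgeR adjusted p = 0.00198). NPC1, the membrane protein that exports cholesterol from lysosomes, stood at 15.9 and 16.6 CPM in cycling libraries, 6.92, 12.4 and 14.2 for quiescent cells, 9.25, 7.94 and 11.7 for irradiated cells, 35.1, 40.6 and 35.5 for etoposide and 22.4 and 28.6 for thapsigargin in RNA. In Ribo-seq NPC1 stood at 31.4, 37.6 and 38.5 CPM in cycling libraries, 6.47, 17.0 and 24.7 for quiescent cells, 6.38, 10.3 and 10.4 for irradiated cells, 76.4, 75.1 and 71.1 for etoposide and 26.8 and 12.6 for thapsigargin. Its etoposide-treated libraries were the highest and its irradiated libraries were below every cycling library in both assays. NPC1 rose 2.28-fold in RNA (log2 fold change 1.19 ± 0.255 (SE), edgeR adjusted p = 0.00274) and 2.07-fold in footprints (log2 fold change 1.05 ± 0.348 (SE), edgeR adjusted p = 0.0318) after etoposide. SMPD1, acid sphingomyelinase, and PSAP and GM2A, which present lipids to hydrolases, rose in RNA with log2 fold changes of 0.69, 0.80 and 0.53. PPT1, the thioesterase that removes palmitate from proteins, was lower in every other state than in cycling cells. Its RNA stood at 65.5 and 62.4 CPM in cycling libraries, 13.1, 26.1 and 27.1 for quiescent cells, 14.4, 16.5 and 13.9 for irradiated cells, 32.1, 36.0 and 34.4 for etoposide and 28.2 and 31.6 for thapsigargin. In Ribo-seq PPT1 stood at 64.8, 65.2 and 75.2 CPM in cycling libraries, 9.97, 21.9 and 26.4 for quiescent cells, 12.8, 15.6 and 11.3 for irradiated cells, 46.4, 32.1 and 36.9 for etoposide and 36.7 and 31.5 for thapsigargin. Every library of the other states was below every cycling library in both assays. PPT1 fell 1.87-fold in RNA after etoposide (log2 fold change -0.90 ± 0.225 (SE), edgeR adjusted p = 0.00717), 4.28-fold after irradiation (log2 fold change -2.10 ± 0.23 (SE), edgeR adjusted p = 1.43e-05) and 2.89-fold in quiescence (log2 fold change -1.53 ± 0.227 (SE), edgeR adjusted p = 0.00103). Its footprints fell 5.17-fold after irradiation (log2 fold change -2.38 ± 0.301 (SE), edgeR adjusted p = 3.87e-05) and 3.52-fold in quiescence (log2 fold change -1.82 ± 0.268 (SE), edgeR adjusted p = 0.000642).

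Of the 10 glycosidases, 4 rose and 1 fell in RNA after etoposide, beside 16.8% and 17.8% of all genes tested. HEXA, a subunit of beta-hexosaminidase, GLA, alpha-galactosidase A, and NEU1, a sialidase, rose with log2 fold changes of 0.86, 0.92 and 0.46. GAA, the enzyme that degrades glycogen, stood at 5.37 and 9.13 CPM in cycling libraries, 7.07, 11.7 and 9.48 for quiescent cells, 10.7, 11.8 and 10.5 for irradiated cells, 15.7, 12.2 and 14.4 for etoposide and 7.80 and 9.04 for thapsigargin in RNA. In Ribo-seq GAA stood at 22.0, 25.6 and 21.2 CPM in cycling libraries, 14.5, 26.6 and 44.7 for quiescent cells, 19.5, 25.1 and 18.8 for irradiated cells, 60.3, 57.5 and 50.7 for etoposide and 1.09 and 3.67 for thapsigargin. It rose in RNA (log2 fold change 0.97 ± 0.246 (SE), edgeR adjusted p = 0.00805) and in footprints (log2 fold change 1.29 ± 0.306 (SE), edgeR adjusted p = 0.00503), and its etoposide-treated libraries were the highest in both assays. GUSB, beta-glucuronidase, stood at 11.9 and 11.99 CPM in cycling libraries, 5.24, 7.55 and 5.24 for quiescent cells, 3.83, 4.30 and 3.42 for irradiated cells, 4.65, 6.25 and 5.47 for etoposide and 6.80 and 8.61 for thapsigargin in RNA. In Ribo-seq GUSB stood at 22.1, 21.5 and 24.7 CPM in cycling libraries, 4.89, 12.4 and 14.3 for quiescent cells, 5.14, 8.36 and 5.80 for irradiated cells, 11.3, 11.2 and 11.9 for etoposide and 15.3 and 8.40 for thapsigargin. All its arrested libraries were below all its cycling libraries. GUSB RNA fell 2.19-fold after etoposide (log2 fold change -1.13 ± 0.206 (SE), edgeR adjusted p = 0.000889) and 3.10-fold after irradiation (log2 fold change -1.63 ± 0.21 (SE), edgeR adjusted p = 5.57e-05). Of the 4 sulfatases, IDS, which removes sulfate from heparan and dermatan sulfate, alone rose in RNA (log2 0.80). Of the 5 membrane proteins none passed in either assay, with RNA log2 fold changes between 0.16 (LAMP2) and 0.72 (MCOLN1).

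Of these RNA calls after etoposide, 14 held under every alternative tried, and so did 9 of the 12 footprint calls. In RNA-seq, PPT1, CTSD, GAA, NEU1, PSAP and SMPD1 lost their calls without cycling replicate 1, SMPD1 and ATP6V1B2 without cycling replicate 2, NEU1, PSAP and SMPD1 without etoposide replicate 2, and SMPD1 without etoposide replicate 3, with edgeR adjusted p up to 0.199. In Ribo-seq the calls of GUSB, NPC1 and PPT1 were lost without any 1 of the cycling libraries and of etoposide replicates 2 and 3, and those of GUSB and NPC1 also without etoposide replicate 1, and NPC1 without a filter on low counts (edgeR adjusted p up to 0.112). A fit of the cycling and etoposide-treated libraries alone called 32 genes in RNA and 33 in footprints. These 2 counts include both directions, and the share of all genes called in that fit is not given here.

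After irradiation, more lysosomal RNAs fell than rose. Of the 44 genes, 15 fell (34.1%, beside 18.8% of all genes tested) and 6 rose (13.6%, beside 16.2%), and the median log2 fold change was -0.2, against 0.0327 over all genes. In footprints 16 fell (36.4%, beside 21.6%) and 3 rose (6.82%, beside 19%), and the median was -0.696, against 0.0265. The share that rose in footprints was below that of all genes tested. The 13 genes that fell in both assays were ARSB, ATP6AP1, CD63, CTSB, CTSC, CTSL, CTSZ, GLB1, GUSB, LIPA, NEU1, NPC1 and PPT1. The 3 that rose in both were the pump subunits ATP6V0D1, ATP6V1A and ATP6V1H.

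Proteases were lower after irradiation for 4 of 11 genes, the same 4 in both assays: CTSB, CTSC, CTSL and CTSZ. Beside them, 18.8% of all genes tested fell in RNA and 21.6% in footprints. CTSB, cathepsin B, fell 2.43-fold in RNA (log2 fold change -1.28 ± 0.225 (SE), edgeR adjusted p = 0.000646) and 2.66-fold in footprints (log2 fold change -1.41 ± 0.252 (SE), edgeR adjusted p = 0.000623). CTSC fell 2.25-fold in RNA (log2 fold change -1.17 ± 0.208 (SE), edgeR adjusted p = 0.000704) and 2.74-fold in footprints (log2 fold change -1.46 ± 0.271 (SE), edgeR adjusted p = 0.000829). CTSZ, a carboxypeptidase, stood at 39.0 and 47.5 CPM in cycling libraries, 18.8, 29.6 and 26.8 for quiescent cells, 26.04, 25.2 and 21.7 for irradiated cells, 38.6, 47.4 and 48.8 for etoposide and 39.4 and 54.4 for thapsigargin in RNA. In Ribo-seq CTSZ stood at 45.4, 51.4 and 60.1 CPM in cycling libraries, 9.49, 23.4 and 28.2 for quiescent cells, 21.8, 19.8 and 22.0 for irradiated cells, 51.3, 59.2 and 49.7 for etoposide and 31.2 and 33.6 for thapsigargin. Its irradiated and quiescent libraries were below all cycling libraries in both assays, and its etoposide-treated libraries overlapped them. CTSZ RNA fell 1.78-fold (log2 fold change -0.83 ± 0.199 (SE), edgeR adjusted p = 0.00546). CTSK was the protease that rose in RNA (log2 0.92, edgeR adjusted p = 0.0348), a call lost without any 1 of its 5 libraries of the 2 groups.

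The lipid enzymes LIPA and SMPD1 fell in RNA (-1.08 and -0.65 on the log2 scale), while ASAH1 rose (0.46). NPC1 fell 1.69-fold in RNA (log2 fold change -0.75 ± 0.25 (SE), edgeR adjusted p = 0.0313) and 3.97-fold in footprints (log2 fold change -2.03 ± 0.414 (SE), edgeR adjusted p = 0.00157). Among membrane proteins CD63, a tetraspanin of late endosomes and exosomes, stood at 749.7 and 662 CPM in cycling libraries, 256, 395 and 422 for quiescent cells, 358, 409 and 312 for irradiated cells, 716, 922 and 792 for etoposide and 533 and 579.5 for thapsigargin in RNA. In Ribo-seq CD63 stood at 956, 996 and 1284 CPM in cycling libraries, 198, 483 and 627 for quiescent cells, 456, 509 and 494 for irradiated cells, 903, 1171 and 1036 for etoposide and 1326 and 1147 for thapsigargin. Irradiated and quiescent libraries were all below the cycling ones. CD63 fell 1.96-fold in RNA (log2 fold change -0.97 ± 0.188 (SE), edgeR adjusted p = 0.00131) and 2.22-fold in footprints (log2 fold change -1.15 ± 0.287 (SE), edgeR adjusted p = 0.00577). LAMP1 and LAMP2, the most abundant glycoproteins of the lysosomal membrane, and MCOLN1, its calcium release channel, fell in footprints alone, with log2 fold changes of -0.92, -0.92 and -1.18. Their RNA values were -0.31, -0.60 and -0.34 and did not pass, though that of LAMP2 passed with the replicate block. Their footprints relative to RNA changed by -0.53, -0.24 and -0.74, and none passed, so a difference between the assays is not shown.

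In RNA-seq 11 of the 21 calls after irradiation held under every alternative, and without cycling replicate 2 there were 13 calls. ARSB, ATP6AP1, CTSZ, FUCA1, GLB1, NPC1, SMPD1, ASAH1 and CTSK lost their RNA call without cycling replicate 2, and CTSL, NPC1, SMPD1, ASAH1 and CTSK without cycling replicate 1, with edgeR adjusted p up to 0.189. In addition CTSL was lost without irradiated replicate 3, NPC1 without irradiated replicates 1 or 2, SMPD1 without irradiated replicates 1 or 3, and ASAH1 without any irradiated replicate or with unstranded counts. In Ribo-seq 18 of 19 calls held, and that of MCOLN1 was lost without irradiated replicate 3 (edgeR adjusted p = 0.055). A fit of cycling and irradiated libraries alone called 33 genes in footprints, in either direction and without the share of all genes beside it.

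The 2 kinds of senescent cells were set against each other directly, a comparison that uses no cycling library. Irradiated cells had less RNA than etoposide-treated cells for 30 of the 44 genes (68.2%, beside 12.9% of all genes tested) and more for none (0%, beside 9.67%). For the count of 0, the number with more RNA at an unadjusted p under 0.05 was also 0, and DESeq2 called 32 genes, all lower. The median log2 fold change was -0.768, against 0.0609 over all genes. Footprints were lower for 32 genes (72.7%, beside 13.7%) and higher for 1, ATP6V1A (2.27%, beside 8.82%), with a median of -1.16 against 0.0641. In RNA-seq 36 of 44 genes had every irradiated library below every etoposide-treated one, as did 21.8% of all genes tested, and in Ribo-seq 40 of 44 did, beside 23% of all. Largest in size were CTSS, with 7.21-fold less RNA after irradiation (log2 fold change -2.84 ± 0.379 (SE), edgeR adjusted p = 0.000293), CTSC with 4.66-fold less (log2 fold change -2.22 ± 0.196 (SE), edgeR adjusted p = 3.71e-05) and NPC1 with 3.85-fold less (log2 fold change -1.94 ± 0.228 (SE), edgeR adjusted p = 0.000139). In footprints NPC1 was 8.22-fold lower (log2 fold change -3.08 ± 0.417 (SE), edgeR adjusted p = 0.000402). NEU1 stood at 47.5 and 51.8 CPM in cycling libraries, 32.2, 40.1 and 35.4 for quiescent cells, 28.9, 34.4 and 29.6 for irradiated cells, 67.5, 73.0 and 64.4 for etoposide and 126 and 129.7 for thapsigargin in RNA. In Ribo-seq NEU1 stood at 45.8, 45.6 and 53.7 CPM in cycling libraries, 11.9, 26.8 and 36.1 for quiescent cells, 21.5, 18.2 and 21.4 for irradiated cells, 62.2, 69.4 and 59.9 for etoposide and 32.3 and 55.1 for thapsigargin. Its irradiated libraries were below, and its etoposide-treated libraries above, all cycling ones in both assays. It was 2.21-fold lower in RNA (log2 fold change -1.14 ± 0.114 (SE), edgeR adjusted p = 5.78e-05) and 3.13-fold lower in footprints (log2 fold change -1.64 ± 0.317 (SE), edgeR adjusted p = 0.00267) after irradiation than after etoposide. All 5 membrane proteins were lower in both assays, with RNA log2 fold changes from -1.17 (CD63) to -0.70 (LAMP1). The genes that passed in neither assay were ATP6V0D1, ATP6V1B2, ATP6V1H, CTSH, GUSB, IDS, NPC2, TFEB and TPP1. In this comparison 22 of 30 RNA calls and 21 of 33 footprint calls held under every alternative. Without irradiated Ribo-seq replicate 1 the footprint calls fell to 21, and the call of ATP6V1A was among those lost (edgeR adjusted p up to 0.14).

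**Figure D3:**
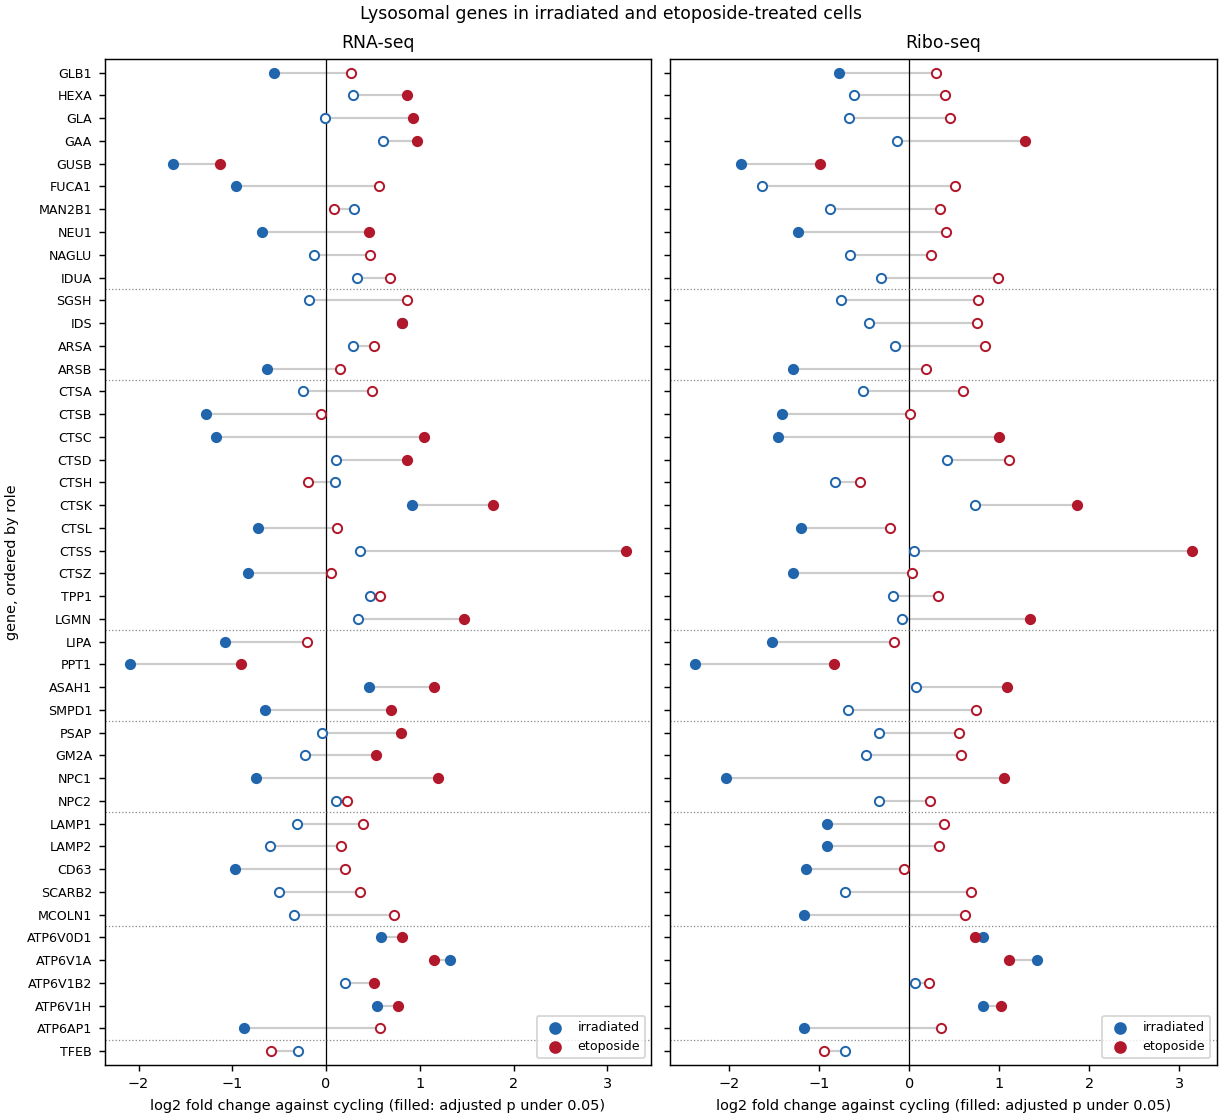
For each of the 44 genes, ordered by role, the points give the log2 fold change against cycling cells after irradiation (blue) and after etoposide (red) in RNA-seq (left) and Ribo-seq (right), and filled points passed an adjusted p under 0.05. Both points are compared with the same cycling libraries. NPC1 lies at -0.75 and 1.19 in RNA, while ATP6V1A lies at 1.32 and 1.15.

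In quiescent cells, lysosomal genes were lower than in cycling cells more often than higher. In RNA 14 fell (31.8%, beside 10.4% of all genes tested) and 3 rose (6.82%, beside 5.18%), with a median log2 fold change of -0.307 against 0.0246 over all genes. In footprints 15 fell (34.1%, beside 14.2%) and 5 rose (11.4%, beside 8.15%), with a median of -0.647 against 0.0376. The genes that fell in both assays were CD63, CTSB, CTSC, CTSL, CTSZ, GLB1, GUSB, LIPA, NEU1 and PPT1, and CTSK and ATP6V1A rose in both. CTSZ footprints fell 2.57-fold (log2 fold change -1.36 ± 0.277 (SE), edgeR adjusted p = 0.00371) and CD63 footprints 2.47-fold (log2 fold change -1.31 ± 0.287 (SE), edgeR adjusted p = 0.00573). CTSK rose 2.45-fold in RNA (log2 fold change 1.29 ± 0.314 (SE), edgeR adjusted p = 0.0138) and 2.35-fold in footprints (log2 fold change 1.23 ± 0.297 (SE), edgeR adjusted p = 0.00993), and CTSS rose 2.40-fold in footprints (log2 fold change 1.23 ± 0.345 (SE), edgeR adjusted p = 0.0207). MCOLN1 stood at 7.59 and 5.50 CPM in cycling libraries, 4.30, 4.87 and 4.76 for quiescent cells, 3.90, 5.59 and 6.05 for irradiated cells, 7.79, 12.6 and 12.2 for etoposide and 10.2 and 18.7 for thapsigargin in RNA. In Ribo-seq MCOLN1 stood at 25.2, 17.4 and 26.1 CPM in cycling libraries, 4.84, 11.7 and 13.2 for quiescent cells, 10.3, 11.8 and 8.40 for irradiated cells, 33.1, 40.8 and 31.2 for etoposide and 33.4 and 23.1 for thapsigargin. Its quiescent libraries were below all cycling libraries in both assays, and the fall passed in footprints (log2 fold change -1.21 ± 0.299 (SE), edgeR adjusted p = 0.0111). The labels number the replicates, and in Ribo-seq same-numbered cycling and quiescent libraries deviated together. With the replicate number as a block 24 genes were called in footprints, the 20 above and ARSB, ASAH1, SGSH and SMPD1. These additional genes were all lower (log2 -0.98, -0.64, -0.92 and -0.88, edgeR adjusted p up to 0.0443). The share of all genes called with this block is not given here.

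These quiescent counts depended on single libraries. In RNA-seq 1 of 17 calls, PPT1, held under every alternative. The number called was 10 without quiescent replicate 1 (2 higher and 8 lower), 5 without cycling replicate 2 and 1 without cycling replicate 1, and a fit of the 2 groups alone called 4. Without quiescent replicate 1 the RNA log2 fold changes were 1.52 for CTSK, -0.90 for GUSB, -0.62 for CTSZ, -1.27 for PPT1 and -0.79 for CD63, all still called (edgeR adjusted p up to 0.043). In Ribo-seq ATP6V0D1, ATP6V1A, CTSC and PPT1 held under every alternative. The footprint values without quiescent replicate 1 were -1.03 for CTSZ, -0.97 for CD63, 1.51 for CTSK, 1.48 for CTSS, -1.52 for PPT1, -0.50 for GLB1 and -0.89 for MCOLN1, again all called (edgeR adjusted p up to 0.00793). There the number called was 19 without quiescent replicate 1 and 10 without cycling replicate 3, and a fit of the 2 groups alone called 6. No share of all genes is set beside the counts of this paragraph.

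The senescent cells were also set against quiescent cells. Etoposide-treated cells had more RNA for 34 of 44 genes (77.3%, beside 21.1% of all genes tested) and less for 3, CTSH, MAN2B1 and TFEB (6.82%, beside 20.6%). Footprints were higher for 34 (77.3%, beside 19%) and lower for TFEB alone (2.27%, beside 16.8%). The medians were 0.762 in RNA and 0.989 in footprints, against -0.0164 and -0.0037 over all genes. LGMN (4.15-fold, log2 fold change 2.05 ± 0.26 (SE), edgeR adjusted p = 4.72e-05) and CTSC (3.98-fold, log2 fold change 1.99 ± 0.195 (SE), edgeR adjusted p = 5.75e-06) were among the largest in RNA. Without quiescent replicate 1 these were log2 fold changes of 1.82 and 1.80, that of GLB1 was 0.63 and that of TFEB -0.90 (edgeR adjusted p up to 0.0394). The calls then numbered 32 in RNA and 34 in footprints. A fit of the 2 groups alone called 20 in footprints, and the shares of all genes in these fits are not given here.

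Irradiated cells were above quiescent cells for 4 genes in RNA, ATP6V1A, ATP6V1H, ASAH1 and LGMN (9.09%, beside 9.01%), and below for GUSB (2.27%, beside 9.7%). In footprints ATP6V0D1, ATP6V1A and ATP6V1H were higher (6.82%, beside 7.22%), and none was lower by edgeR or by DESeq2 (0%, beside 7.33%), with 2 lower at an unadjusted p under 0.05. The number of calls in this comparison, and how many were lower, depended on quiescent replicate 1. Without it, 12 genes passed in RNA, 8 of them lower after irradiation, and 20 passed in footprints, 17 of them lower. The share of all genes called in that fit is not given here, so these counts have no background beside them. Without irradiated RNA-seq replicate 2 there were 2 calls in RNA, and without quiescent Ribo-seq replicate 3 there were 5 in footprints. The calls of ATP6V1A and ATP6V1H held under every alternative in both assays.

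Of the 5 proton pump genes, 3 rose and 1 fell after irradiation in both assays, and after etoposide 4 rose in RNA and 3 in footprints. Among all genes tested, 16.2% rose and 18.8% fell in RNA after irradiation, and 19% and 21.6% did in footprints. After etoposide 16.8% of all genes rose in either assay. The V-ATPase has a cytosolic sector that burns ATP, which holds the catalytic subunit ATP6V1A, the subunit ATP6V1B2 and the regulatory subunit ATP6V1H, and a membrane sector, which holds ATP6V0D1, and ATP6AP1 is its glycosylated accessory protein. ATP6V1A stood at 148 and 151 CPM in cycling libraries, 208, 203 and 211 for quiescent cells, 355, 385 and 379 for irradiated cells, 337, 332 and 328 for etoposide and 194 and 172 for thapsigargin in RNA. In Ribo-seq ATP6V1A stood at 260.5, 274 and 246 CPM in cycling libraries, 414, 428 and 383 for quiescent cells, 692, 733 and 664 for irradiated cells, 574, 543 and 567 for etoposide and 296 and 339 for thapsigargin. No other state overlapped cycling cells in either assay, and the irradiated libraries were the highest. It rose 2.49-fold in RNA after irradiation (log2 fold change 1.32 ± 0.0998 (SE), edgeR adjusted p = 5.52e-07) and 2.22-fold after etoposide (log2 fold change 1.15 ± 0.0991 (SE), edgeR adjusted p = 1.24e-06). Its footprints rose 2.68-fold (log2 fold change 1.42 ± 0.0837 (SE), edgeR adjusted p = 2.91e-08) and 2.16-fold (log2 fold change 1.11 ± 0.083 (SE), edgeR adjusted p = 2.14e-07). ATP6V1H stood at 66.6 and 64.5 CPM in cycling libraries, 68.8, 69.7 and 65.4 for quiescent cells, 86.9, 97.5 and 103 for irradiated cells, 112, 118 and 105 for etoposide and 101 and 86.1 for thapsigargin in RNA, so its senescent libraries were all above its cycling and quiescent ones. It rose with log2 fold changes of 0.55 after irradiation and 0.77 after etoposide in RNA, and of 0.82 and 1.02 in footprints. ATP6V0D1 rose by 0.59 and 0.81 in RNA and by 0.81 and 0.72 in footprints, on the same scale. ATP6V1B2 rose in RNA after etoposide (0.51) and under thapsigargin (0.90), and not by the test after irradiation (0.20). ATP6AP1 stood at 47.5 and 54.1 CPM in cycling libraries, 19.7, 37.3 and 36.9 for quiescent cells, 24.3, 31.4 and 27.5 for irradiated cells, 69.7, 86.5 and 71.4 for etoposide and 35.4 and 48.0 for thapsigargin in RNA, and its irradiated libraries were all below its cycling ones. It fell after irradiation in RNA (log2 fold change -0.87 ± 0.235 (SE), edgeR adjusted p = 0.0107) and in footprints (log2 fold change -1.17 ± 0.321 (SE), edgeR adjusted p = 0.0102). All calls of ATP6V1A, ATP6V1H and ATP6V0D1 against cycling cells after irradiation and etoposide held under every alternative.

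Other V-ATPase subunits, a list of 14 of which 13 passed the RNA filter and 12 the footprint filter, changed in both directions after irradiation. In RNA 7 rose (53.8%, beside 16.2% of all genes tested) and 4 fell (30.8%, beside 18.8%), and in footprints 5 rose (41.7%, beside 19%) and 5 fell (41.7%, beside 21.6%). After etoposide 8 rose (61.5%, beside 16.8%) and 1 fell (7.69%, beside 17.8%) in RNA, and 7 rose (58.3%, beside 16.8%) and 1 fell (8.33%, beside 17.1%) in footprints. Named by size, TCIRG1 and ATP6V0A2 fell after irradiation (RNA log2 -1.23 and -1.24), and ATP6V1E1 and ATP6V1G1 rose after etoposide (1.25 and 1.25). A split between the sectors of the pump was not tested.

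**Figure D4:**
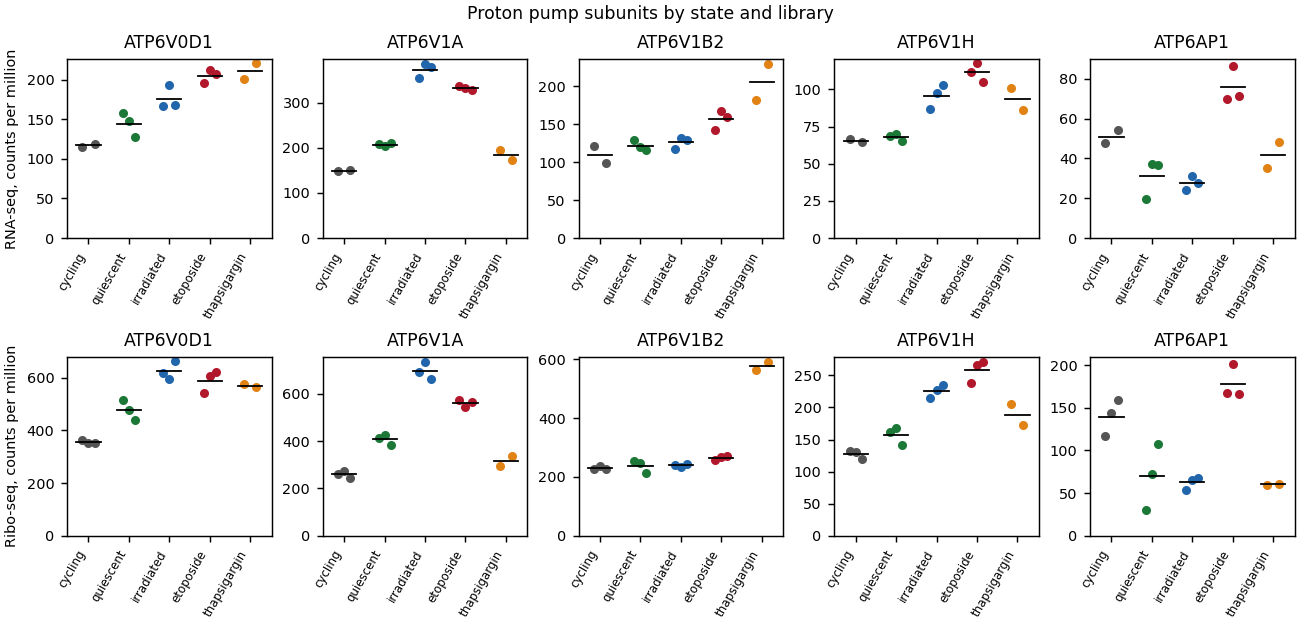
Each panel gives the CPM of 1 pump subunit in every library by state, for RNA-seq (top) and Ribo-seq (bottom), with the mean as a line and axes that start at 0. ATP6V1A reaches 355 to 385 CPM of RNA in irradiated cells against 148 to 151 in cycling cells, ATP6AP1 RNA is lowest in irradiated cells and in quiescent replicate 1, and ATP6V1B2 footprints are highest under thapsigargin.

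Under thapsigargin, footprints fell for more of these genes than RNA did. In RNA 8 genes rose (18.2%, beside 11.7% of all genes tested) and 7 fell (15.9%, beside 12.8%), with a median log2 fold change of 0.102 against -0.0342 over all genes. In footprints 20 fell (45.5%, beside 23.6%) and 6 rose (13.6%, beside 21.1%), with a median of -0.962 against -0.0823. Footprints relative to RNA, tested as the interaction of assay and state, fell for 14 genes (31.8%, beside 12.9%) and rose for none (0%, beside 7.87%), with 1 higher at an unadjusted p under 0.05 and 2 called higher by DESeq2. The median of this relative change was -0.836 against -0.151. Footprints of the fibroblast markers summed to 12500 to 13100 CPM in thapsigargin-treated and 35100 to 37200 CPM in cycling libraries. Their RNA summed to 9710 to 10700 and 10300 to 14700 CPM. COL1A1 and COL1A2 footprints averaged 1850 and 676 CPM under thapsigargin against 12300 and 9670 in cycling cells. The other markers averaged lower too, except VIM (9410 against 9300 CPM). HSPA5, a protein of the endoplasmic reticulum, averaged 2010 against 1080 CPM of footprints and 409 against 145 CPM of RNA. Footprints of LAMP1, LAMP2 and SCARB2 fell, and those of CD63 and MCOLN1 did not pass. Whether secreted and membrane proteins changed as a class was not tested.

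The 14 genes whose footprints fell relative to RNA came from most roles: HEXA, GAA, MAN2B1, NEU1, NAGLU and IDUA among 10 glycosidases, SGSH among 4 sulfatases, LGMN among 11 proteases, SMPD1 among 4 lipid enzymes, PSAP, GM2A and NPC1 among 4 activators and cholesterol transporters, and LAMP1 and LAMP2 among 5 membrane proteins. None of the 5 pump subunits passed. Footprints of the pump's accessory protein ATP6AP1 did fall by the test, at 59.7 and 60.9 CPM against 116, 144 and 159 in cycling cells. Its RNA did not pass, and that footprint call did not hold under every alternative. With the replicate block the relative value of ATP6AP1 passed. LAMP1 RNA changed by a log2 fold change of 0.15 ± 0.192 (SE) and did not pass, while its footprints fell 3.05-fold (log2 fold change -1.61 ± 0.317 (SE), edgeR adjusted p = 0.00127), a relative change of -1.82 ± 0.364 (SE; edgeR adjusted p = 0.00134). LAMP1 footprints stood at 116 and 171 CPM under thapsigargin and 368, 469 and 473 CPM in cycling cells, without overlap. LAMP2 footprints stood at 46.5 and 34.6 CPM and 136, 181 and 158 CPM, and fell 3.89-fold (log2 fold change -1.96 ± 0.33 (SE), edgeR adjusted p = 0.000404). PSAP, the precursor of the saposins, had 332 and 313 CPM of footprints against 1075, 1267 and 1237 in cycling cells, and fell 3.70-fold (log2 fold change -1.89 ± 0.283 (SE), edgeR adjusted p = 0.000174), and its RNA fell by a smaller amount (log2 -0.80). NEU1 RNA rose 2.58-fold (log2 fold change 1.37 ± 0.139 (SE), edgeR adjusted p = 1.97e-05), its footprints changed by -0.14 ± 0.353 (SE) and did not pass, and the relative change was -1.56 ± 0.373 (SE; edgeR adjusted p = 0.00485). GM2A and NAGLU rose in RNA (0.64 and 0.60) and fell in footprints (-1.15 and -1.52).

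Footprints that rose under thapsigargin were those of ATP6V0D1, ATP6V1A, ATP6V1B2 and ATP6V1H, with CTSK and CTSD. ATP6V1B2 footprints stood at 565 and 590.1 CPM against 226, 236 and 226 in cycling cells and rose 2.52-fold (log2 fold change 1.33 ± 0.0899 (SE), edgeR adjusted p = 2.14e-07), and its RNA rose 1.87-fold (log2 fold change 0.90 ± 0.145 (SE), edgeR adjusted p = 0.00067). MCOLN1 and NPC2 rose in RNA (log2 1.14 and 0.70), and their footprints did not pass (0.31 and 0.17).

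The 2 thapsigargin Ribo-seq libraries held 1936976 and 2044900 counts, and several of their values rest on few reads. In 10 of the 44 genes at least 1 of the 2 libraries had under 10 counts: GAA, FUCA1, MAN2B1, IDUA, IDS, CTSD, CTSH, CTSS, LGMN and TFEB. IDUA, which with IDS degrades heparan and dermatan sulfate, stood at 1.64 and 3.06 CPM in cycling libraries, 1.83, 2.53 and 2.10 for quiescent cells, 3.07, 3.36 and 2.28 for irradiated cells, 3.35, 3.63 and 4.15 for etoposide and 1.90 and 2.30 for thapsigargin in RNA. In Ribo-seq IDUA stood at 11.1, 11.7 and 11.96 CPM in cycling libraries, 5.18, 9.78 and 19.7 for quiescent cells, 8.87, 8.36 and 10.7 for irradiated cells, 22.5, 22.2 and 24.3 for etoposide and 0 and 2.10 for thapsigargin. Its thapsigargin footprints were 0 and 4 counts, and their fall (log2 fold change -3.42 ± 0.85 (SE), edgeR adjusted p = 0.00548) was lost without thapsigargin Ribo-seq replicate 1. GAA had 2 and 7 counts, and its fall (log2 fold change -3.25 ± 0.611 (SE), edgeR adjusted p = 0.000898) held under every alternative. LGMN, with 13 and 3 counts, fell with a log2 fold change of -2.58. The rise of CTSD (2.06, edgeR adjusted p = 0.0468) came from 17 and 1 counts, and without thapsigargin Ribo-seq replicate 1 it turned to -1.15. Of the 26 footprint calls 11 held under every alternative, among them those of ATP6V0D1, ATP6V1B2, ATP6V1H, CTSB, CTSC, GAA, GLB1, LAMP1, LAMP2, LGMN and PSAP. Of the 14 relative calls 7 held, those of GAA, GM2A, HEXA, LAMP1, LAMP2, NAGLU and NEU1, and there were 9 calls without cycling RNA-seq replicate 1 or without cycling Ribo-seq replicate 3. In RNA the number called was 8 without cycling replicate 1 and 6 without cycling replicate 2, and a fit of the 2 groups alone called 9. ATP6V0D1, ATP6V1B2, GM2A, NEU1, NPC2 and PPT1 kept their RNA calls throughout. The cycling and thapsigargin Ribo-seq libraries were also counted against gene lists of unequal length, a difference that cannot be told apart from the treatment.

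**Figure D5:**
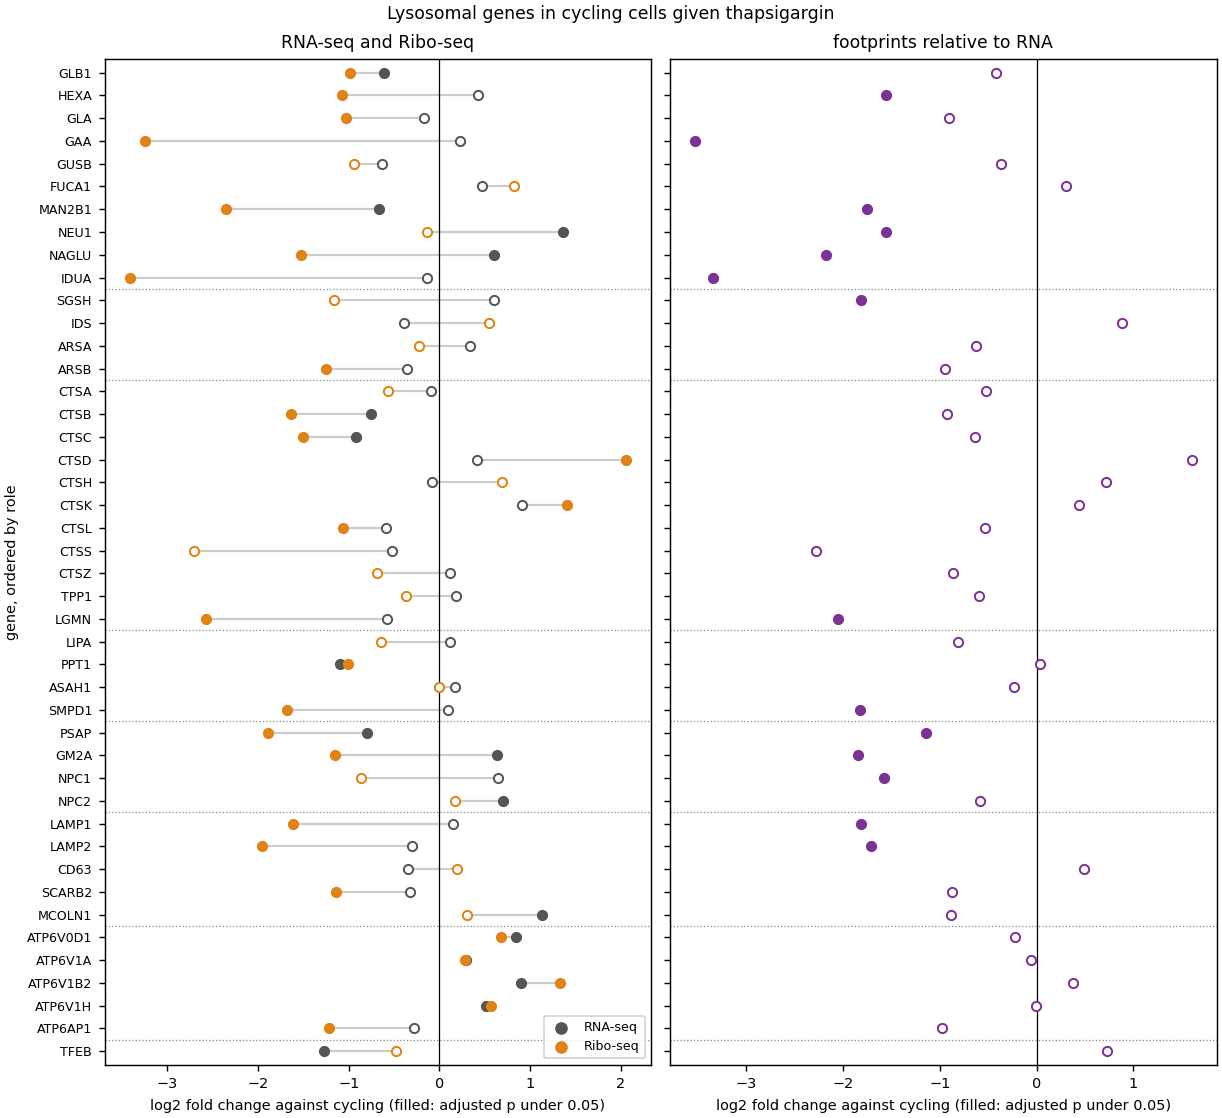
For each of the 44 genes, ordered by role, the left panel gives the log2 fold change under thapsigargin against cycling cells in RNA-seq (grey) and Ribo-seq (orange), and the right panel the change of footprints relative to RNA. Filled points passed an adjusted p under 0.05. LAMP1 lies at 0.15 in RNA and -1.61 in footprints, while ATP6V1B2 lies at 0.90 and 1.33.

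In the arrested states, no gene of the 44 passed the test for footprints relative to RNA. In quiescence 4 had an unadjusted p under 0.05 (1 higher and 3 lower), after irradiation 4 did (1 higher and 3 lower), and after etoposide 0 did, and DESeq2 called 0 in each. Of all 11715 genes tested, edgeR called 0.00854% higher and 0% lower in quiescence, 0.0427% and 0.00854% after irradiation, and 0.0256% and 0.0427% after etoposide. The median relative change was -0.178 in quiescence, -0.332 after irradiation and -0.0968 after etoposide, against 0.0769, 0.0692 and -0.0268 over all genes. A fit of the cycling and irradiated libraries alone called 8 genes, all lower. The share of all genes called in that fit is not given here, so this count has no background beside it.

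TFEB, the transcription factor of the set, was not among the genes that rose in any comparison. Its RNA stood at 4.64 and 4.41 CPM in cycling libraries, 5.31, 5.66 and 5.73 for quiescent cells, 3.45, 4.42 and 3.18 for irradiated cells, 2.59, 3.36 and 3.07 for etoposide and 0.975 and 2.72 for thapsigargin. In Ribo-seq TFEB stood at 4.42, 3.25 and 3.70 CPM in cycling libraries, 3.88, 4.09 and 5.74 for quiescent cells, 2.48, 2.66 and 1.74 for irradiated cells, 1.74, 2.17 and 1.90 for etoposide and 5.48 and 0 for thapsigargin. Etoposide-treated libraries were below all cycling and quiescent libraries in both assays. Against cycling cells TFEB RNA fell under thapsigargin (log2 fold change -1.27 ± 0.353 (SE), edgeR adjusted p = 0.0191), and after etoposide it stood at -0.59 ± 0.317 (SE), which did not pass. Against quiescent cells it fell after etoposide in RNA (log2 fold change -0.88 ± 0.282 (SE), edgeR adjusted p = 0.0227) and in footprints (log2 fold change -1.23 ± 0.452 (SE), edgeR adjusted p = 0.0477). These footprint values rest on few reads: 10, 14 and 11 counts after etoposide and 81, 71 and 112 in quiescence. After irradiation there were 14, 7 and 6 counts. The thapsigargin RNA call was lost without either cycling library or thapsigargin replicate 1 (edgeR adjusted p up to 0.142). The RNA call against quiescence was lost without quiescent replicate 2 and without etoposide replicates 1 or 3, and the footprint call without quiescent replicates 2 or 3, without any etoposide replicate and with RLE scaling (edgeR adjusted p up to 0.0761 and 0.144).

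Of 20 TFEB relatives and genes of lysosomal nutrient signalling, 6 rose in RNA after irradiation (30%, beside 16.2% of all genes tested), 5 after etoposide (25%, beside 16.8%) and 3 in quiescence (15%, beside 5.18%). None of them fell in these 3 states by edgeR, where 18.8%, 17.8% and 10.4% of all genes did. Without quiescent replicate 1, a setting chosen after seeing the data for this and the other lists, 2 rose in quiescence. RRAGD, a GTPase through which amino acids reach the kinase mTOR at the lysosome, rose most: its RNA log2 fold change was 4.55 ± 0.725 (SE) after irradiation (edgeR adjusted p = 0.000309), 5.45 ± 0.689 after etoposide, 3.15 ± 0.811 in quiescence and 5.83 ± 0.697 under thapsigargin. These values set 34, 46 and 42 counts after irradiation, 101, 92 and 97 after etoposide, 11, 8 and 27 in quiescence and 165 and 210 under thapsigargin against 3 and 0 counts in the cycling libraries, so their size depends on the prior count of the fit. Without quiescent replicate 1 the quiescent value was 3.35 (edgeR adjusted p = 0.0193). MITF, a relative of TFEB, rose after irradiation (log2 fold change 1.09 ± 0.152 (SE), edgeR adjusted p = 0.000113) and after etoposide (log2 fold change 0.90 ± 0.151 (SE), edgeR adjusted p = 0.00046). Under thapsigargin RRAGC, a partner of RRAGD, rose (log2 fold change 1.54 ± 0.19 (SE), edgeR adjusted p = 8.83e-05).

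Of 30 lysosomal hydrolases outside the 44 genes, 27 were tested. In RNA 12 fell (44.4%, beside 18.8% of all genes tested) and 3 rose (11.1%, beside 16.2%) after irradiation. After etoposide 2 fell (7.41%, beside 17.8%) and 9 rose (33.3%, beside 16.8%). In quiescence 11 fell (40.7%, beside 10.4%) and 1 rose (3.7%, beside 5.18%), and without quiescent replicate 1 these were 7 and 1. Irradiated cells were below etoposide-treated cells for 23 of the 27 in RNA (85.2%, beside 12.9%) and for 21 in footprints (77.8%, beside 13.7%), and above for none by edgeR in either assay, beside 9.67% and 8.82% of all genes. AGA, which cuts sugars from asparagine, fell after irradiation (log2 fold change -1.48 ± 0.232 (SE), edgeR adjusted p = 0.000273) and in quiescence (log2 fold change -1.22 ± 0.231 (SE), edgeR adjusted p = 0.00367), NAAA, an acid amidase, fell in quiescence (log2 -1.56), CTSV, a cathepsin, fell after irradiation (-3.30, from 3, 1 and 0 counts against 13 and 12), and ARSG and CTSO rose after etoposide (1.92 and 1.28). Without quiescent replicate 1 the quiescent values were -1.004 for AGA and -1.43 for NAAA, both called (edgeR adjusted p up to 0.00757). Under thapsigargin 14 of the 27 fell in footprints (51.9%, beside 23.6%) and none rose, beside 21.1% of all genes.

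Of 21 other lysosomal membrane proteins, 19 passed the RNA filter, and 8 fell (42.1%, beside 18.8% of all genes tested) and 2 rose (10.5%, beside 16.2%) after irradiation. After etoposide 1 fell (5.26%, beside 17.8%) and 4 rose, a share of 21.1% near the 16.8% of all genes. LAPTM4B fell after irradiation (log2 fold change -1.67 ± 0.215 (SE), edgeR adjusted p = 5.71e-05) and in quiescence (log2 fold change -1.50 ± 0.215 (SE), edgeR adjusted p = 0.000898; -1.28 and still called without quiescent replicate 1), and OSTM1 and PLEKHM1 rose after etoposide (1.17 and 0.80). Of 16 genes that deliver hydrolases to lysosomes, 6 rose in RNA after etoposide (37.5%, beside 16.8%) and none fell, beside 17.8% of all genes. After irradiation 3 rose, a share of 18.8% near the 16.2% of all genes, and 1 fell (6.25%, beside 18.8%). M6PR, a mannose 6-phosphate receptor that carries new hydrolases from the Golgi, fell after irradiation (log2 fold change -0.97 ± 0.154 (SE), edgeR adjusted p = 0.000303), and IGF2R, the other receptor of that tag, rose after etoposide (log2 fold change 0.95 ± 0.263 (SE), edgeR adjusted p = 0.0133).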

How the data were processed

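RNA-seq (13 libraries) and Ribo-seq (14 libraries) of IMR90 cells were deposited as read counts per gene for each library. The authors aligned reads to hg38 with STAR 2.7.10b, per the submitters' processing notes, which also name DESeq2 1.36.0 and bcl2fastq; the annotation release is not given in the sources used here. The deposited counts come in 3 strand settings, and the reverse-strand column was used for the stranded RNA-seq kit and the forward-strand column for the small-RNA kit of Ribo-seq. Reads that name no gene stayed out of the totals: unmapped reads, multimapping reads (19.8% to 31.9% in Ribo-seq, and 65.2% to 66.9% under thapsigargin), reads outside genes and ambiguous reads (8.15% to 17.7%). The files use 2 gene lists of unequal length, and the 60534 gene IDs they share were kept, then protein-coding genes by RefSeq symbol. Groups came from the sample titles, since 1 label calls every thapsigargin library ribosome-protected RNA.

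Tests on these counts used the package edgeR 4.0.16 under R 4.3.3 (TMM scaling, filterByExpr, quasi-likelihood F test with robust fitting), with all states of an assay in 1 fit and Benjamini-Hochberg adjustment over all genes tested; calls are at an adjusted p under 0.05. Footprints relative to RNA were tested as the interaction of assay and state. Fold values in words are ratios of mean CPM, and the log2 fold change is the fitted one. The fit was tested on simulated data with known changes. Alternatives were RLE scaling, DESeq2 1.42.0, no filter on low counts, unstranded counts, only the groups compared, a replicate block, and each library left out in turn.

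The 44 genes and the other lists were chosen with earlier results of these data known. Values in every library are given for GLB1, TFEB and, for each state against cycling cells in each assay, the 3 called genes with the largest log2 fold change, and for a few more genes chosen after their values were seen. Of each other list at most 2 called genes per RNA comparison with cycling cells are named, by size. Same-numbered libraries were taken as paired where at least 3 pairs were there and each pair's deviations from the group means correlated over 0.1: this held for quiescent against cycling Ribo-seq (0.189 to 0.329) and for RNA-seq with Ribo-seq in the relative test after etoposide (0.143 to 0.444), where the block gave 0 calls as did the fit without it. No 2 replicates agreed within counting noise. Levels were not compared between genes, because gene lengths were not used here.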

Additional observations from a re-analysis of the deposited data

Results flagged for a closer look

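Genes that passed the test in opposite directions against cycling cells after irradiation and after etoposide are listed here, with the direct difference between irradiated and etoposide-treated cells, which edgeR called for each. In RNA-seq the log2 difference, irradiated minus etoposide, was -1.14 for NEU1 (edgeR adjusted p = 5.78e-05), -2.22 for CTSC (edgeR adjusted p = 3.71e-05), -1.34 for SMPD1 (edgeR adjusted p = 0.000649) and -1.94 for NPC1 (edgeR adjusted p = 0.000139). In Ribo-seq it was -2.46 for CTSC (edgeR adjusted p = 0.000175) and -3.08 for NPC1 (edgeR adjusted p = 0.000402). Of the calls against cycling cells, only those of CTSC held under every alternative in both states, in each assay. In RNA-seq NEU1 held after irradiation only, NPC1 after etoposide only and SMPD1 in neither state. In Ribo-seq NPC1 held after irradiation only. The direct differences listed here all held under every alternative. Every irradiated library was below every etoposide-treated library for these values, as for 21.8% of all genes tested in RNA-seq and 23% in Ribo-seq. Because the direct test had to call a gene for it to be listed, this lack of overlap adds no support.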

How the results depend on the processing

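Over all alternatives, 205 counts of called genes stayed within 1.5 times their value and 23 did not, and of single-gene values 3477 kept their direction and side of the threshold, 429 lost the call, 5 gained it and 19 changed sign. Fits of only the groups compared gave these counts: in RNA 4 in quiescence, 32 after etoposide, 9 under thapsigargin and 3 for irradiated against quiescent cells; in footprints 6 in quiescence, 33 after irradiation, 33 after etoposide and 20 for etoposide-treated against quiescent cells; and 8 for footprints relative to RNA after irradiation. No share of all genes called in the same fits is set beside these counts. The causes were not tested.

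With each library left out in turn, RNA calls ranged from 1 to 19 in quiescence (lowest without cycling replicate 1), 13 to 18 after irradiation (lowest without cycling replicate 2), 6 to 12 under thapsigargin (lowest without cycling replicate 2) and 2 to 12 for irradiated against quiescent cells (highest without quiescent replicate 1). Footprint calls ranged from 10 to 29 in quiescence (lowest without cycling replicate 3), 3 to 20 for irradiated against quiescent cells (highest without quiescent replicate 1) and 21 to 28 for irradiated against etoposide-treated cells (lowest without irradiated replicate 1). Relative calls under thapsigargin ranged from 9 to 16 (lowest without cycling RNA-seq replicate 1 or cycling Ribo-seq replicate 3). Where this left 1 library in a group, that library was assumed to vary like the other groups. The shares of all genes called in these fits are not given here.

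Signs changed for values near 0 or resting on few reads. With libraries left out, GLB1 in irradiated against quiescent cells ranged from -0.194 to 0.0231 (log2) in RNA and from -0.319 to 0.0520 in footprints, and CTSD footprints under thapsigargin from -1.15 to 2.99. TFEB under thapsigargin ranged from -8.17 to 0.53 in footprints and from -7.99 to 1.72 in footprints relative to RNA, since 1 thapsigargin library had 0 reads of it. Relative to RNA, GLB1 ranged from -0.297 to 0.0547 in quiescence and from -0.0851 to 0.0988 after etoposide, and TFEB from -0.0907 to 0.131 in quiescence. RLE scaling and DESeq2 gave -0.01441 and -0.01513 for TFEB in quiescence and 0.009993 and 0.009822 for GLB1 after etoposide.

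Apart from quiescent with cycling Ribo-seq and the relative test after etoposide, same-numbered libraries shared only a number: over all same-numbered pairs the correlation of their deviations from the group means had a median of 0.065 (lowest -0.398) in RNA, 0.0297 (lowest -0.208) in Ribo-seq and 0.105 between RNA-seq and Ribo-seq of a state (-0.0429 for unequal numbers), and 7 of 13 Ribo-seq libraries correlated best with the RNA-seq library of their number. With the replicate block, calls in RNA numbered 19 in quiescence, 20 after irradiation, 25 after etoposide and 16 under thapsigargin; 6 for irradiated against quiescent, 38 for etoposide-treated against quiescent and 30 for irradiated against etoposide-treated cells. In footprints the block gave 24, 20, 14, 24, 4, 36 and 32 in the same order, and 17 relative calls under thapsigargin. These counts do not separate higher from lower, and the shares of all genes called with the block are not given here.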

Other observations

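Of the other lysosomal lists, 6 genes passed the filter in neither assay. Over all 13 RNA-seq and 14 Ribo-seq libraries, CD68, a glycoprotein of macrophage lysosomes, had 6 and 0 counts, and HYAL1, a hyaluronidase, had 71 and 2. ATP6V0C, which encodes the membrane ring of the proton pump, had 13 RNA-seq and 4 Ribo-seq counts in all libraries together. SPNS1 had 35 and 11 counts, GLB1L2 13 and 6, and CPVL 4 and 2. Reads that mapped to several places or fell in more than 1 gene are left out of these counts, and the number each gene lost that way was not tested, so a low count here is not shown to be a low level of RNA.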
